A study of Mus musculus with 12 samples.

Results

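The hepatic stellate cell markers described here are 10 genes of the 41128 in the raw count table, chosen by symbol and followed across all 5 groups of libraries. They are the contractile and cytoskeletal genes Acta2, Tagln and Des, the genes of the resting cell Lrat and Reln, the receptors Ngfr, Pdgfra and Pdgfrb, and the small proteoglycans Dcn and Lum. Each symbol matched 1 gene, and all 10 passed the filter on low counts in every fit; the lowest count of any of them in any library was 7.

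Polyadenylated RNA of 12 mouse libraries was sequenced to describe the liver next to a tumour and after toxic injury. Untreated hepatocytes (n = 3) and peritumoral hepatocytes (n = 3) came from mice with the genotype Lats1tm1.1Jfm/RjoJ; Lats2tm1.1Jfm/RjoJ, floxed alleles of 2 Hippo pathway kinases, and their titles call all of them wild type. The sources used here do not say whether Cre was present. The peritumoral group had received plasmids by hydrodynamic injection at 8 weeks of age, with 1 µg of SB11 transposase, 20 µg of myc-NICD (the activated part of Notch) and 4 µg of myr-ha-Akt (membrane-bound Akt), and tumours grew for 8 weeks. Control livers (n = 2) and livers taken 24 h (n = 2) or 48 h (n = 2) after a single intraperitoneal dose of thioacetamide (TAA), a hepatotoxin, came from CD-1 IGS mice of Charles River. The age label reads 8 weeks in all 5 groups. The labels describe every library as hepatocytes from a Percoll gradient, whereas the design text speaks of livers for the TAA set; that set is called liver here. Since stock differs between the sets, and preparation may, each treated group was compared with its own untreated group. No label says that replicates came from separate animals, so the p-values measure only the spread between these libraries.

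Stellate cells lie between hepatocytes and the sinusoidal endothelium and store vitamin A as retinyl esters when quiescent. After liver injury they turn into contractile, matrix-producing myofibroblasts, lose their retinoid droplets and respond to platelet-derived growth factor. Acta2 and Tagln are classical targets of serum response factor, which binds the CArG box, and YAP and TAZ act through TEAD factors, which bind the motif CATTCC.

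RefSeq (GRCm38.p6) gave the 250 bases before the transcription start for 6 of the 10 genes: Acta2, Des, Lrat, Reln, Pdgfra and Ngfr. These windows were searched on both strands for the CArG box and for CATTCC, and the 2 genes that held a match are shown, followed by Des as a contractile gene without one. A strict CArG box, with only A or T in its core, stood in none of the 6 windows and in 1.47% of the 32851 mouse promoters searched in the same way. A CArG box with at most 1 G or C in the core stood in 8.59% of all promoters, and CATTCC in 12.6%. Acta2 held 2 relaxed CArG boxes and 1 CATTCC, in the reverse sense; its 30-base sites on the minus strand lie at chr19:34255438-34255467, chr19:34255388-34255417 and chr19:34255502-34255531. GENCODE starts Acta2 farther upstream, at position 34255590, and 217 of the 250 bases, with all 3 sites, lie in its annotated exons. Lrat held 1 of each in the window chr3:82903975-82904224 on the minus strand, and they do not overlap. The windows of Des (chr1:75360042-75360291, plus strand), Reln, Pdgfra and Ngfr held none of these letters. Capitals mark the matches, and sequences run 5′ to 3′.
Acta2 CArG box 84 bases before the start: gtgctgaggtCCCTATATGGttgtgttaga
Acta2 CArG box 34 bases before the start: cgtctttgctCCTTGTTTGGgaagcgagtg
Acta2 TEAD motif 146 bases before the start: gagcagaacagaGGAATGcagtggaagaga
Lrat upstream window: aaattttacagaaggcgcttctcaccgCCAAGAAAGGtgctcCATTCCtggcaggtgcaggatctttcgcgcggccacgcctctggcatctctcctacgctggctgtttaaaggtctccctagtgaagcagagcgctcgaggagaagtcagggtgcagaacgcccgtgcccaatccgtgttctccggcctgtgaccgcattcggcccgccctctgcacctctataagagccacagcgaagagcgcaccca
Des upstream window: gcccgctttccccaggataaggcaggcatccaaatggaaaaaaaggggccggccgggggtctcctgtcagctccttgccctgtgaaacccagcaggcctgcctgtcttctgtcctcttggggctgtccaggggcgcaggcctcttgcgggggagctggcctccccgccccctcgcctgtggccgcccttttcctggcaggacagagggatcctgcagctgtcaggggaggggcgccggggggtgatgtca

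Libraries held between 16228747 and 18522324 counts in the hepatocyte set and between 9640845 and 13692235 in the liver set, so that 3 counts, taken as the limit of detection, equal 0.162 to 0.311 RPM. Levels are CPM, each count over its library total, scaled by TMM, a factor that aligns the bulk of the genes between libraries, and log2 fold changes ± standard error come from edgeR (quasi-likelihood), with p-values adjusted over all genes tested by Benjamini-Hochberg. The 10 hepatocyte markers summed to between 60878 and 256210 CPM and none of them was at 0 throughout a group. The 10 stellate genes were detected in every library too, at a sum of 49.2 to 109 CPM in untreated hepatocytes, 338 to 568 in peritumoral hepatocytes, 98.6 to 159 in control livers, 337 to 371 at 24 h and 423 to 505 at 48 h. Gfap, another marker of the quiescent cell, was low throughout, between 0 and 0.469 CPM. It stood at 0, 0.0564 and 0.0712 CPM in untreated and 0.469, 0.231 and 0.395 CPM in peritumoral hepatocytes. Livers held 0 and 0.0997 CPM in controls, 0.159 and 0.299 CPM at 24 h and 0 and 0.211 CPM at 48 h.

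Of the libraries, 2 stood apart for these genes. Peritumoral replicate 2 differed from the mean of the other 2 of its group by -2.47 (log2) for Lrat and -2.23 for Reln but by 1.26 for Pdgfra and 0.63 for Acta2, with a median of -0.06 over all genes. In the same library the summed cholangiocyte markers reached 7324 CPM, against 780 and 1069 in the other 2, and the portal fibroblast and mesothelial markers 289 CPM, against 68.8 and 109; the part of these cells in the results was not tested. Untreated replicate 3 lay below the mean of its group's other 2 for 9 of the 10 genes, by -1.67 for Reln, -1.63 for Tagln, -1.44 for Pdgfra and -1.11 for Lrat, with a median of -0.12 over all genes. Results whose call or size changed most without these libraries are given with and without them.

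**Figure D1:**
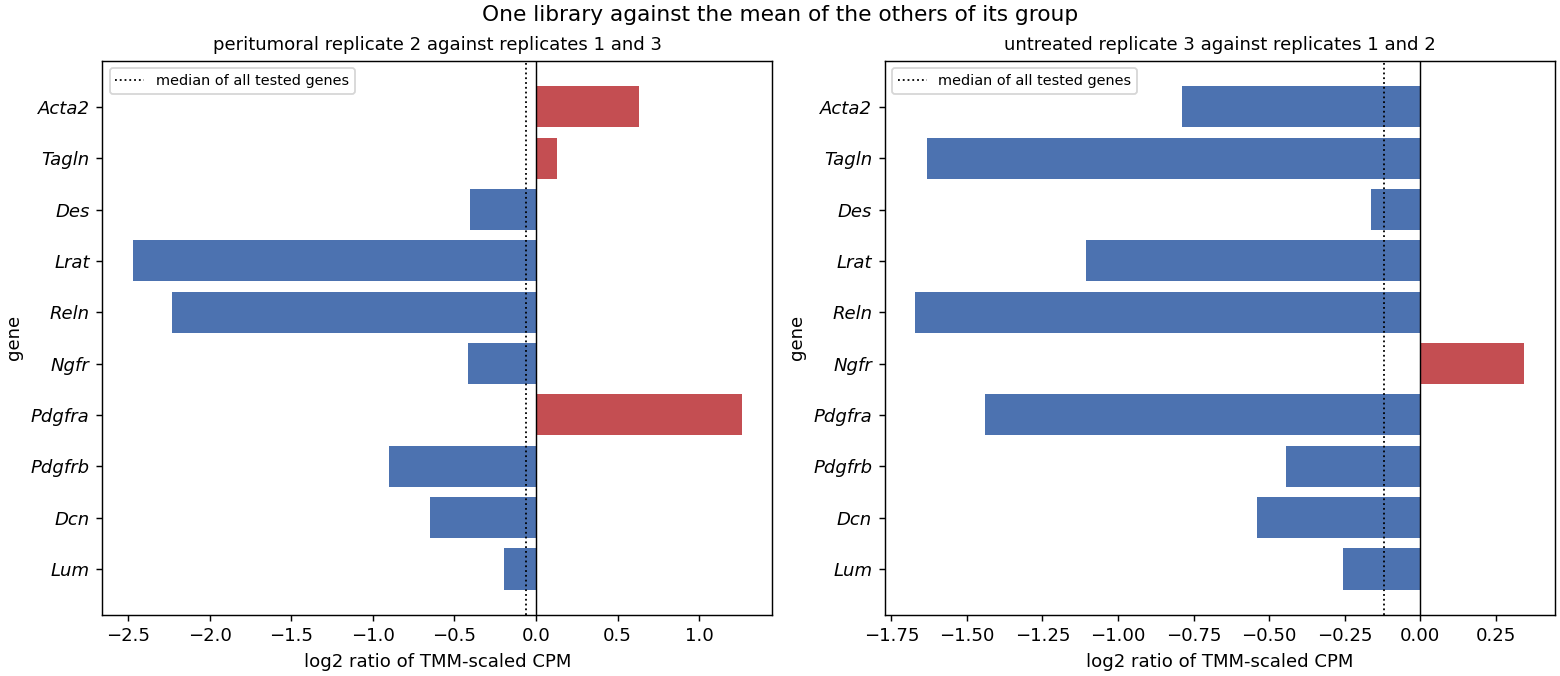
Log2 ratio of the TMM-scaled CPM of 1 library to the mean of the other 2 of its group, for each of the 10 genes; bars left of 0 are lower in that library, and the dotted line is the median of all tested genes. In peritumoral replicate 2 Lrat (-2.47) and Reln (-2.23) lie lowest and Pdgfra (1.26) highest, and in untreated replicate 3 only Ngfr (0.34) lies above 0.

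Stellate cell genes were higher next to the tumours. In peritumoral against untreated hepatocytes, 7 of the 10 genes rose (Acta2, Des, Ngfr, Pdgfra, Pdgfrb, Dcn and Lum), where 19.0% of the 13442 genes tested rose, and Tagln, Lrat and Reln did not pass the test. The median of the 10 changes was 2.55, against -0.02 over all genes. In bulk samples fewer cells of a type and less RNA per cell cannot be told apart, and this holds for every level given here. In 8 of the 10, all but Lrat and Reln, every peritumoral library lay above every untreated one, which held for 25.7% of the genes tested. Without TMM factors the split over all genes moved from 2560 higher and 1370 lower to 2593 and 205, with the median of all genes shifted to 0.23.

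Stellate cell genes were also higher after TAA. At 24 h, 8 of the 10 rose (Acta2, Tagln, Des, Reln, Pdgfra, Pdgfrb, Dcn and Lum), against 21.3% of the 13497 genes tested, with a median change of 1.63 against 0.02 over all genes. At 48 h, 9 of the 10 rose, all but Ngfr, against 25.0% of genes, with a median change of 2.63 against -0.03. The libraries did not overlap with the controls for 9 genes at 24 h, all but Ngfr, against 43.9% of genes, and for all 10 at 48 h, against 40.8%. The 2 time points share the control livers and are set side by side for that reason. Without TMM factors the split over all genes moved from 2877 higher and 2767 lower to 6127 and 1228 at 24 h, and from 3372 and 3226 to 7661 and 971 at 48 h, with the median of all genes shifted to 0.53 and 0.68. In a fit of all 12 libraries, Reln (adjusted p = 0.283), Pdgfra (0.0978) and Dcn (0.0550) no longer passed at 24 h, nor Lrat (0.0731) and Reln (0.281) at 48 h, while Ngfr passed at both times and Tagln next to tumours (0.0264).

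**Figure D2:**
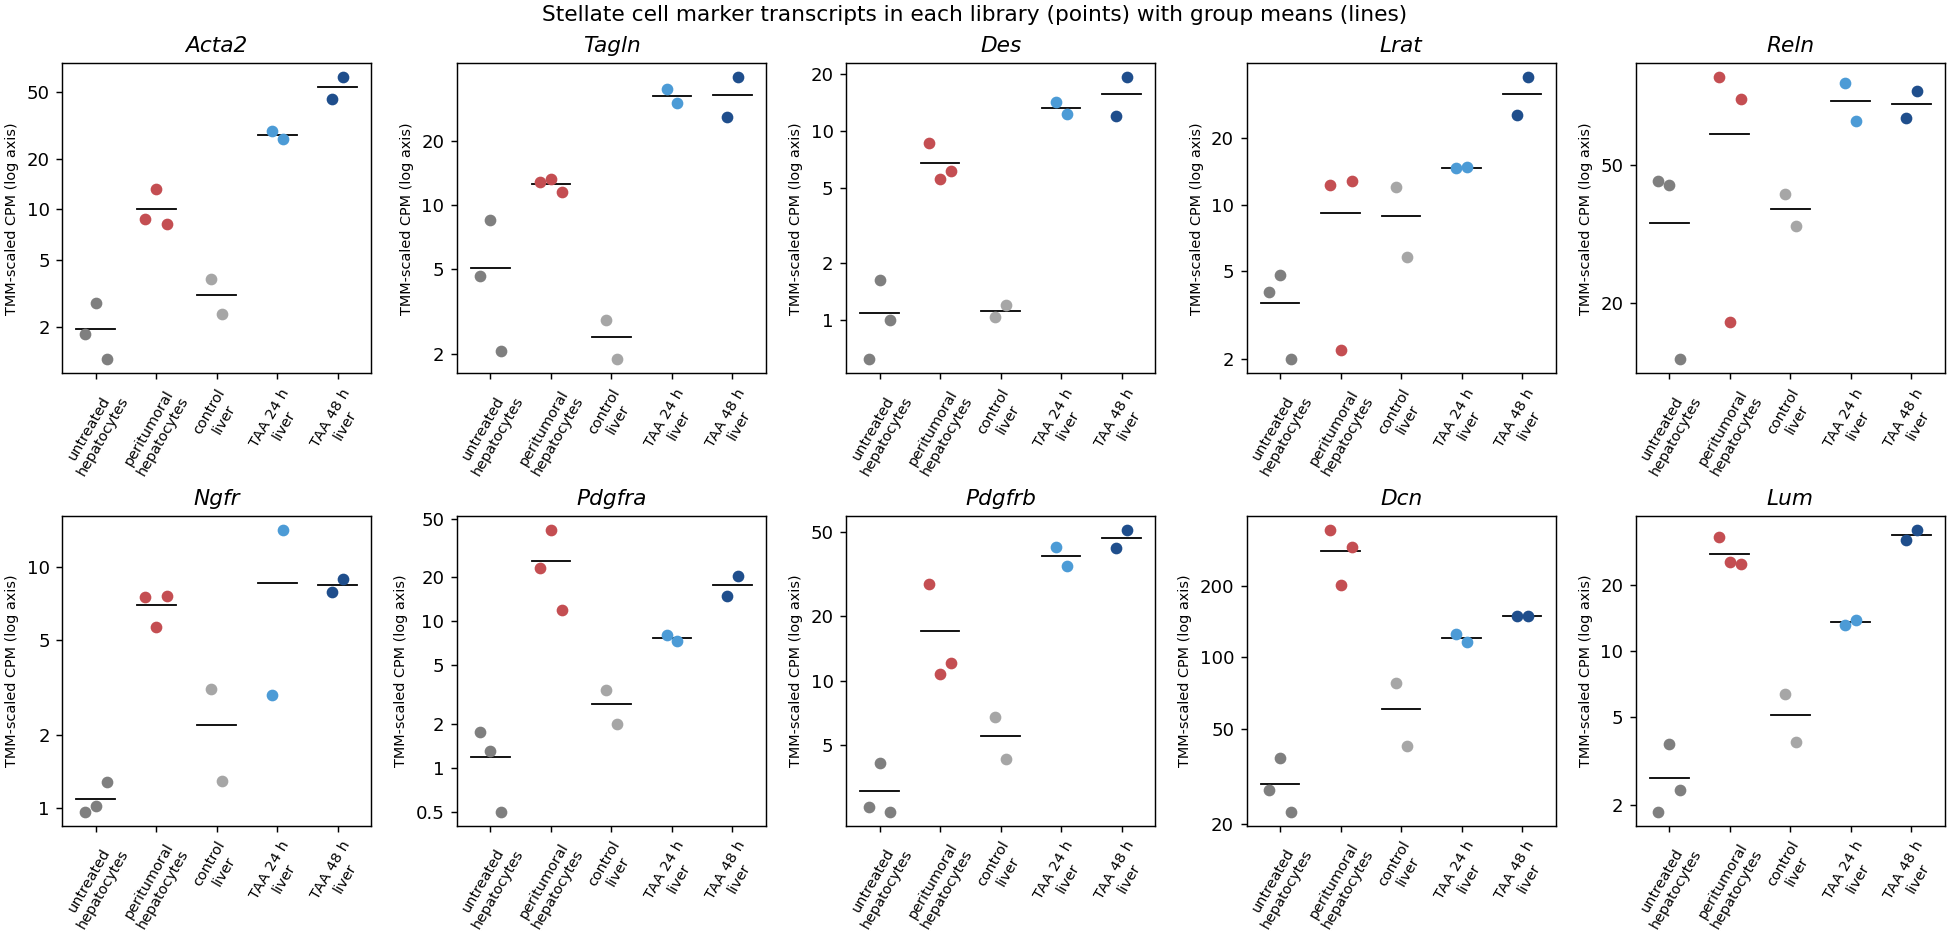
TMM-scaled CPM (log axis) of the 10 genes in each of the 12 libraries, by group. Untreated hepatocytes and control livers hold the 2 lowest group means of every gene, TAA livers hold the highest of Acta2 and Des, with a highest Acta2 value of 61.4 CPM, and peritumoral hepatocytes the highest of Dcn, with 343.9 CPM.

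Acta2 encodes smooth muscle alpha-actin, the usual marker of an activated stellate cell. It stood at 1.81, 2.77 and 1.28 CPM in untreated hepatocytes and at 8.73, 13.2 and 8.24 CPM in peritumoral hepatocytes. In livers it stood at 3.83 and 2.39 CPM in controls, 29.5 and 26.2 CPM at 24 h and 45.3 and 61.4 CPM at 48 h. Each treated group lay apart from its own controls, and in livers the 3 groups followed each other without overlap. Acta2 rose by 2.36 ± 0.36 next to tumours (edgeR adjusted p = 0.00632), by 3.04 ± 0.27 at 24 h (adjusted p = 0.00063) and by 4.02 ± 0.27 at 48 h (adjusted p = 0.000235). Its group means spanned 27.3-fold, the widest range of the 10 genes, from 1.95 CPM in untreated hepatocytes to 53.3 CPM in livers at 48 h. These groups differ in mouse stock as well as in treatment.

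Des encodes desmin, the muscle-type intermediate filament that marks rodent stellate cells. It stood at 0.622, 1.64 and 0.997 CPM in untreated and 8.67, 5.58 and 6.15 CPM in peritumoral hepatocytes. In livers it stood at 1.04 and 1.20 CPM in controls, 14.2 and 12.3 CPM at 24 h and 11.9 and 19.2 CPM at 48 h. Untreated hepatocytes and control livers overlapped at the bottom, and the 2 TAA groups overlapped at the top. Des rose by 2.63 ± 0.41 next to tumours (adjusted p = 0.00661), by 3.44 ± 0.32 at 24 h (adjusted p = 0.000681) and by 3.71 ± 0.32 at 48 h (adjusted p = 0.000371).

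Tagln encodes transgelin, an actin-binding protein of smooth muscle. Its level was 4.64, 8.58 and 2.07 CPM in untreated and 12.9, 13.4 and 11.5 CPM in peritumoral hepatocytes. The livers held 2.90 and 1.89 CPM in controls, 35.4 and 30.2 CPM at 24 h and 26.0 and 40.0 CPM at 48 h. The untreated hepatocytes were spread widely, below all peritumoral libraries, and both TAA groups were far above the controls. Tagln rose by 3.65 ± 0.30 at 24 h (adjusted p = 0.000602) and by 3.70 ± 0.30 at 48 h (adjusted p = 0.00033). Next to tumours its change of 1.31 ± 0.45 did not pass (adjusted p = 0.0707). It passed in 4 of 17 other settings of edgeR, DESeq2 and limma. Among these, it was 1.88 ± 0.39 without untreated replicate 2 (adjusted p = 0.0420), and DESeq2 gave 1.30 (adjusted p = 0.0316). Across all 17 the change ran from 0.95 to 1.88, with adjusted p of 0.0264 to 0.217. On chromosome 9, Tagln shares 67.9% of its exon length with Pcsk7 and Gm48529 on the opposite strand, and no source used here gives the strand setting of the counting, which leaves its counts uncertain. Pcsk7, which encodes a proprotein convertase, had group means between 30.7 and 37.9 CPM and did not pass in any of these 3 comparisons, with changes of -0.12 ± 0.19, -0.42 ± 0.14 and -0.14 ± 0.14.

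Lrat encodes lecithin retinol acyltransferase, which makes the retinyl esters that a quiescent stellate cell stores. It stood at 4.01, 4.80 and 1.99 CPM in untreated hepatocytes and at 12.4, 2.19 and 12.9 CPM in peritumoral hepatocytes. The livers held 12.01 and 5.78 CPM in controls, 14.6 and 14.8 CPM at 24 h and 25.6 and 37.9 CPM at 48 h. Peritumoral replicate 2 fell among the untreated libraries while the other 2 lay above them, and the livers at 48 h lay above all other groups. Lrat rose at 48 h by 1.76 ± 0.35 (adjusted p = 0.00667), while its changes of 1.32 ± 0.65 next to tumours (adjusted p = 0.169) and 0.61 ± 0.35 at 24 h (adjusted p = 0.196) did not pass. Without peritumoral replicate 2 the first became 1.81 ± 0.36 (adjusted p = 0.0171), the only 1 of 17 other settings of edgeR, DESeq2 and limma in which it passed. Across those settings it ran from 0.99 to 1.81, with adjusted p up to 0.36. The change at 24 h became 1.21 ± 0.29 without control replicate 1, whereas without control replicate 2 it was 0.17 ± 0.27.

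Reln encodes reelin, a secreted glycoprotein first known from neuronal positioning and made in the liver by stellate cells. Its level was 44.8, 43.6 and 13.8 CPM in untreated and 89.2, 17.6 and 77.1 CPM in peritumoral hepatocytes. Control livers held 41.1 and 33.3 CPM, livers at 24 h 85.8 and 66.8 CPM, and livers at 48 h 67.9 and 81.2 CPM. The library low in Lrat was low in Reln as well, and the 2 TAA groups overlapped. Reln rose by 0.92 ± 0.18 at 24 h (adjusted p = 0.00845) and by 0.93 ± 0.18 at 48 h (adjusted p = 0.00622), the smallest of the changes that passed at 48 h. Next to tumours its change was 0.84 ± 0.63 (adjusted p = 0.355), and 1.30 ± 0.47 without peritumoral replicate 2 (adjusted p = 0.101). Leaving out untreated replicate 3 gave 0.47 ± 0.65 (adjusted p = 0.615). At 24 h it no longer passed without 24 h replicate 1 (0.73 ± 0.19, adjusted p = 0.0543).

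Ngfr encodes the p75 neurotrophin receptor, found on stellate cells. It stood at 0.961, 1.02 and 1.28 CPM in untreated and 7.56, 5.66 and 7.61 CPM in peritumoral hepatocytes. Livers held 3.11 and 1.30 CPM in controls, 2.94 and 14.3 CPM at 24 h, and 7.92 and 8.93 CPM at 48 h. The 2 libraries at 24 h lay far apart, and replicate 1 lay among the controls. Ngfr rose next to tumours by 2.66 ± 0.28 (adjusted p = 0.00329), and its changes of 1.86 ± 0.74 at both 24 h (adjusted p = 0.0858) and 48 h (adjusted p = 0.0787) did not pass. Without 24 h replicate 1 they were 2.59 ± 0.46 (adjusted p = 0.0193) and 1.86 ± 0.41 (adjusted p = 0.0175), and without 24 h replicate 2 they were 0.30 ± 0.52 (adjusted p = 0.694) and 1.82 (adjusted p = 0.0206). DESeq2 gave an adjusted p of 0.0301 at 24 h and 0.0256 at 48 h, and the fit of all 12 libraries 0.0492 and 0.0424.

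Pdgfra encodes the alpha receptor for platelet-derived growth factor, carried by fibroblasts of several kinds. It stood at 1.75, 1.30 and 0.499 CPM in untreated and 23.3, 42.3 and 11.96 CPM in peritumoral hepatocytes. Livers held 3.42 and 1.99 CPM in controls, 8.03 and 7.39 CPM at 24 h and 14.9 and 20.5 CPM at 48 h. The peritumoral libraries were spread widely and overlapped with the livers at 48 h. Pdgfra rose by 4.45 ± 0.63 next to tumours (adjusted p = 0.00531), by 1.39 ± 0.30 at 24 h (adjusted p = 0.0118) and by 2.63 ± 0.30 at 48 h (adjusted p = 0.000887). The first was 3.88 ± 0.52 without peritumoral replicate 2, where Pdgfra was highest (adjusted p = 0.00471), and the second no longer passed without 24 h replicate 1 (1.33 ± 0.38, adjusted p = 0.0637).

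Pdgfrb encodes the beta receptor, through which platelet-derived growth factor drives stellate cell proliferation, and lies on chromosome 18. It stood at 2.54, 4.12 and 2.42 CPM in untreated and 28.3, 10.8 and 12.1 CPM in peritumoral hepatocytes. Livers held 6.73 and 4.29 CPM in controls, 42.5 and 34.3 CPM at 24 h and 41.9 and 51.1 CPM at 48 h. Both TAA groups lay above all peritumoral libraries, the reverse of Pdgfra at 24 h. Pdgfrb rose by 2.48 ± 0.44 next to tumours (adjusted p = 0.00987), by 2.69 ± 0.25 at 24 h (adjusted p = 0.000711) and by 2.999 ± 0.25 at 48 h (adjusted p = 0.000357). The first did not pass without untreated replicate 1 (2.37 ± 0.56, adjusted p = 0.0530).

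Dcn encodes decorin, a small leucine-rich proteoglycan that binds collagen fibrils, and lies on chromosome 10 at positions 97479609 to 97518143 (GRCm38), upstream of Lum on the same strand. It stood at 27.7, 37.8 and 22.4 CPM in untreated and 343.9, 202.4 and 291 CPM in peritumoral hepatocytes. Livers held 78.4 and 42.6 CPM in controls, 125 and 116 CPM at 24 h and 149.7 and 149 CPM at 48 h. All peritumoral libraries lay above all other libraries. Dcn rose by 3.25 ± 0.27 next to tumours (adjusted p = 0.00267), by 0.88 ± 0.26 at 24 h (adjusted p = 0.0334) and by 1.23 ± 0.26 at 48 h (adjusted p = 0.00843). The call at 24 h was lost without 24 h replicate 1 (adjusted p = 0.138), 24 h replicate 2 (0.0932), 48 h replicate 1 (0.0578) or 48 h replicate 2 (0.0553).

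Lum encodes lumican, a close relative of decorin with keratan sulphate chains, at positions 97565128 to 97572703 of chromosome 10. It stood at 1.87, 3.78 and 2.35 CPM in untreated and 32.9, 25.3 and 25.0 CPM in peritumoral hepatocytes. Livers held 6.42 and 3.89 CPM in controls, 13.2 and 13.8 CPM at 24 h and 31.96 and 35.6 CPM at 48 h. Unlike Dcn, the peritumoral libraries overlapped with the livers at 48 h. Lum rose by 3.37 ± 0.31 next to tumours (adjusted p = 0.00267), by 1.27 ± 0.24 at 24 h (adjusted p = 0.00733) and by 2.63 ± 0.25 at 48 h (adjusted p = 0.000459).

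**Figure D3:**
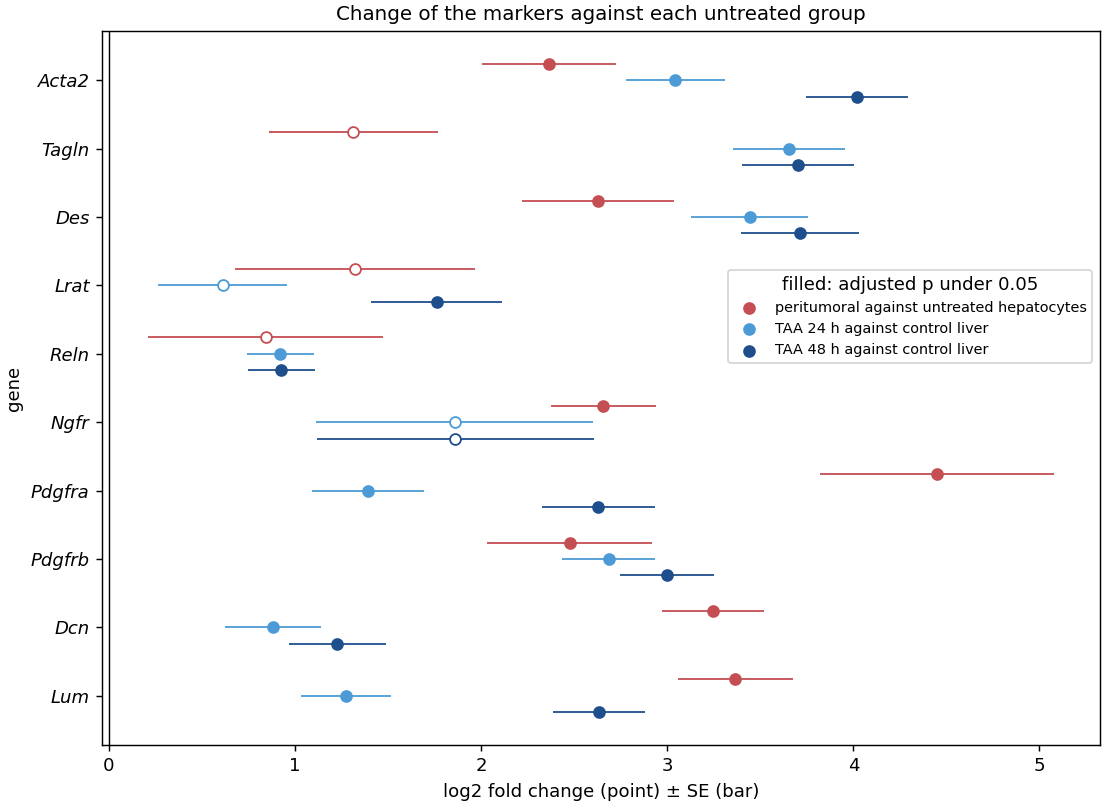
Log2 fold change ± SE (edgeR) of each gene against its own untreated group; filled points have an adjusted p under 0.05. Next to tumours Pdgfra (4.45), Lum (3.37) and Dcn (3.25) lie farthest right, and after TAA Acta2, Des and Tagln do, with Acta2 at 4.02 at 48 h.

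Between 24 h and 48 h after TAA, Lum and Pdgfra were the genes that rose, 2 of the 10 against 4.96% of the genes tested. Lum rose by 1.36 ± 0.23 (adjusted p = 0.0259) and Pdgfra by 1.24 ± 0.28 (adjusted p = 0.0475). The other 8 did not pass; Lrat had a change of 1.15 ± 0.34 (adjusted p = 0.0891) and Acta2 of 0.98 ± 0.23 (adjusted p = 0.0573), while Tagln (0.05 ± 0.26), Reln (0.01 ± 0.18) and Ngfr (0.00 ± 0.67) had changes near 0. The libraries at 48 h lay above those at 24 h in 5 genes (Acta2, Lrat, Pdgfra, Dcn and Lum), against 29.1% of genes. Without any 1 of the 4 TAA libraries the changes were 1.28 to 1.43 for Lum and 0.99 to 1.44 for Pdgfra. Neither passed then (adjusted p of 0.102 to 0.154 and 0.143 to 0.209), but with 1 library in an arm the genes called fell from 989 to between 0 and 256 over all genes. Without control replicate 1 or 2, Acta2 (0.0357 and 0.0356) and Lrat (0.0357 and 0.0354) passed as well, as they did in DESeq2 (0.00264 and 0.0184).

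Whether a gene changed more next to tumours than after TAA was tested as the difference between the 2 log2 fold changes in a fit of all 12 libraries. Against TAA at 24 h the peritumoral change was larger for Pdgfra, Dcn and Lum and smaller for Tagln, 4 of 10 genes against 21.1% of the 14615 tested; 9.03% were larger and 12.1% smaller. The difference was 2.91 ± 0.79 for Pdgfra (adjusted p = 0.0291), 2.26 ± 0.43 for Dcn (adjusted p = 0.00983), 1.98 ± 0.42 for Lum (adjusted p = 0.0137) and -2.47 ± 0.66 for Tagln (adjusted p = 0.0275). Against TAA at 48 h it was larger for Dcn, by 1.95 ± 0.43 (adjusted p = 0.0200), and smaller for Tagln, by -2.48 ± 0.66 (adjusted p = 0.0348), and Acta2, by -1.74 ± 0.48 (adjusted p = 0.0387). These are 3 of 10 genes against 15.3%, with 6.71% larger and 8.57% smaller. The other genes did not pass; Pdgfra had a difference of 1.71 ± 0.78 at 48 h (adjusted p = 0.155), and Lrat, Reln, Ngfr, Pdgfrb and Des had differences between -1.16 and 0.73 over both times. Both contrasts share the hepatocyte and control libraries.

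With any 1 library left out the differences against 24 h kept their sign, at 1.83 to 2.68 for Dcn, 1.66 to 2.35 for Lum, 2.29 to 3.32 for Pdgfra and -2.84 to -1.83 for Tagln, as did those against 48 h, at 1.505 to 2.35 for Dcn, -2.85 to -1.85 for Tagln and -2.05 to -1.38 for Acta2. Several then missed the threshold, mostly where a liver group was left with 1 library, and the genes called over all genes fell as well, to as few as 551 of 3091 and 293 of 2233. Against 24 h, the call of Dcn was lost without 24 h replicate 1 (2.30, adjusted p = 0.0532). Lum was lost without 24 h replicate 1 (0.0672) or control replicate 1 (0.0583). Tagln was lost without 24 h replicate 1 (0.0957), 24 h replicate 2 (0.0623), control replicate 1 (0.0733), control replicate 2 (0.110) or untreated replicate 1 (0.0527). Pdgfra was lost without 24 h replicate 1 (0.101), 24 h replicate 2 (0.0927), control replicate 1 (0.124), control replicate 2 (0.0536) or untreated replicate 2 (0.0563). Against 48 h, Dcn was lost without 48 h replicate 1 (0.0712), 48 h replicate 2 (0.0718), control replicate 1 (0.0658) or untreated replicate 1 (0.0523), and Acta2 and Tagln were lost without any 1 of the 6 livers, of untreated replicates 1 and 2 or of peritumoral replicate 3, with adjusted p of 0.0593 to 0.153 for Acta2 and 0.0546 to 0.133 for Tagln over the livers. Without peritumoral replicate 1 Acta2 alone was lost (0.0651). Pdgfra against 24 h was also lost without TMM factors (0.0603) and in limma on log2 RPM (0.0635 to 0.0680).

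**Figure D4:**
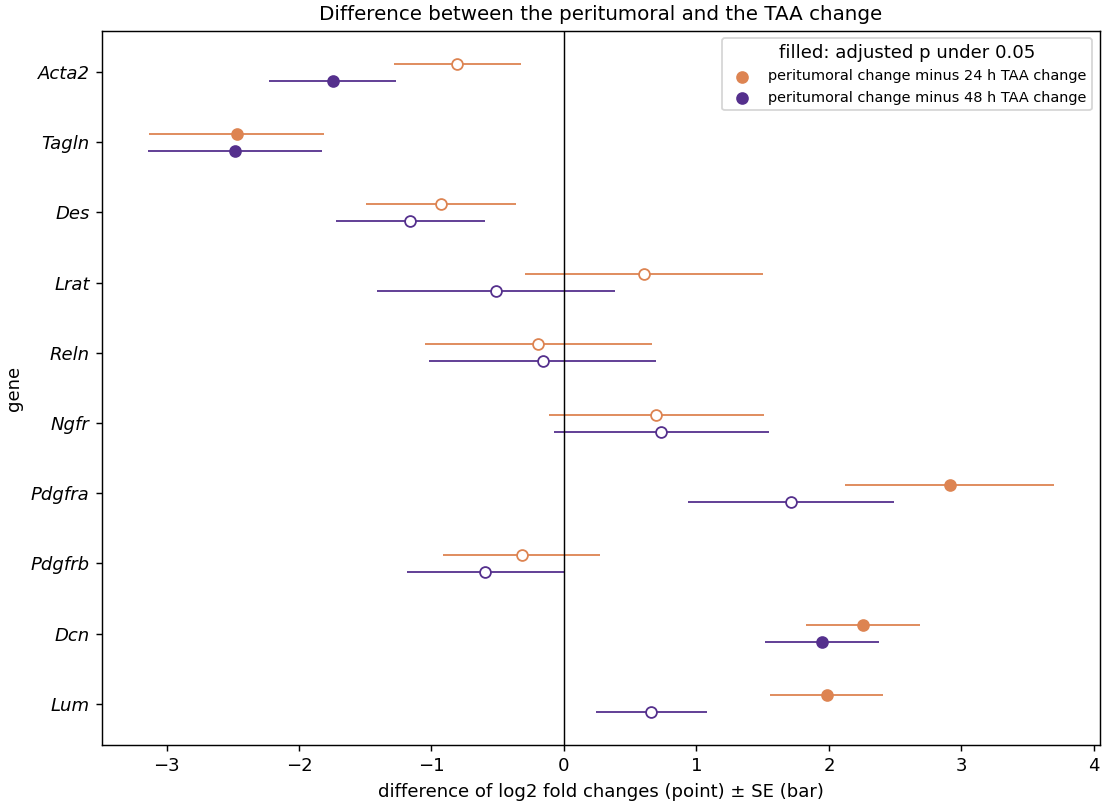
Difference between the peritumoral log2 fold change and the TAA log2 fold change at 24 h and 48 h, ± SE (edgeR, all 12 libraries); filled points have an adjusted p under 0.05 and points right of 0 changed more next to tumours. Dcn (2.26 and 1.95) lies right of 0 and Tagln (-2.47 and -2.48) left of 0 at both times.

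Compared per kilobase of exon, Dcn was the most abundant of the 10 genes in all 5 groups, at 5.02 CPM per kb in untreated hepatocytes, 47.8 in peritumoral hepatocytes, 10.4 in control livers, 20.7 at 24 h and 25.6 at 48 h. The gene next to Dcn was Tagln in untreated hepatocytes (2.56 CPM per kb) and at 24 h (16.5), Lum in peritumoral hepatocytes (11.3) and control livers (2.11), and Acta2 at 48 h (24.3). Pdgfra was the least abundant per kilobase in 4 groups, and Lrat, at 1.71 CPM per kb, in peritumoral hepatocytes. Orders across the hepatocyte and liver sets describe levels only and were not tested, as the sets differ in mouse stock and may in preparation. Across the groups, 9 of the 10 genes had their lowest mean in untreated hepatocytes and Tagln in control livers. Untreated hepatocytes and control livers overlapped for Acta2, Tagln, Des and Reln, and control livers lay higher for Lrat, Pdgfra, Pdgfrb, Ngfr, Dcn and Lum. The highest mean was at 48 h for Acta2, Tagln, Des, Lrat, Pdgfrb and Lum, at 24 h for Reln and Ngfr, and in peritumoral hepatocytes for Pdgfra and Dcn; among these, Acta2, Lrat and Dcn lay apart from the next group.

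Ratios of counts within a library do not depend on scaling. Each sum follows mostly the gene with more counts. Control livers held 397 and 334 counts of Reln against 116 and 58 of Lrat. They held 757 and 427 counts of Dcn against 62 and 39 of Lum. The counts of Tagln are uncertain, as said above. The log2 ratio of Acta2 plus Tagln to Lrat plus Reln, activation over quiescence, was -2.97 and -3.17 in control livers, -0.63 and -0.53 at 24 h and -0.39 and -0.23 at 48 h. In hepatocytes it was -2.92, -2.09 and -2.23 in untreated and -2.23, 0.42 and -2.19 in peritumoral libraries. The livers shifted without overlap, by 2.49 at 24 h and 2.76 at 48 h (exact permutation test, two-sided, p = 0.333 each, the smallest that 2 against 2 allows), and the hepatocyte groups overlapped. Their difference of 1.08 (exact permutation p = 0.4) came down to 0.21 without peritumoral replicate 2 (exact permutation p = 0.8).

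The log2 ratio of Dcn plus Lum to Lrat plus Reln was -0.73, -0.22 and 0.65 in untreated and 1.89, 3.52 and 1.82 in peritumoral hepatocytes, without overlap. The difference of 2.51 had an exact permutation p of 0.1, the smallest that 3 against 3 allows, and was 1.95 without peritumoral replicate 2. In livers the ratio was 0.67 and 0.25 in controls, 0.46 and 0.67 at 24 h and 0.96 and 0.63 at 48 h, and all 3 groups overlapped. Over the 12 tests of ratios, the lowest Benjamini-Hochberg adjusted p was 0.799, so none passed.

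**Figure D5:**
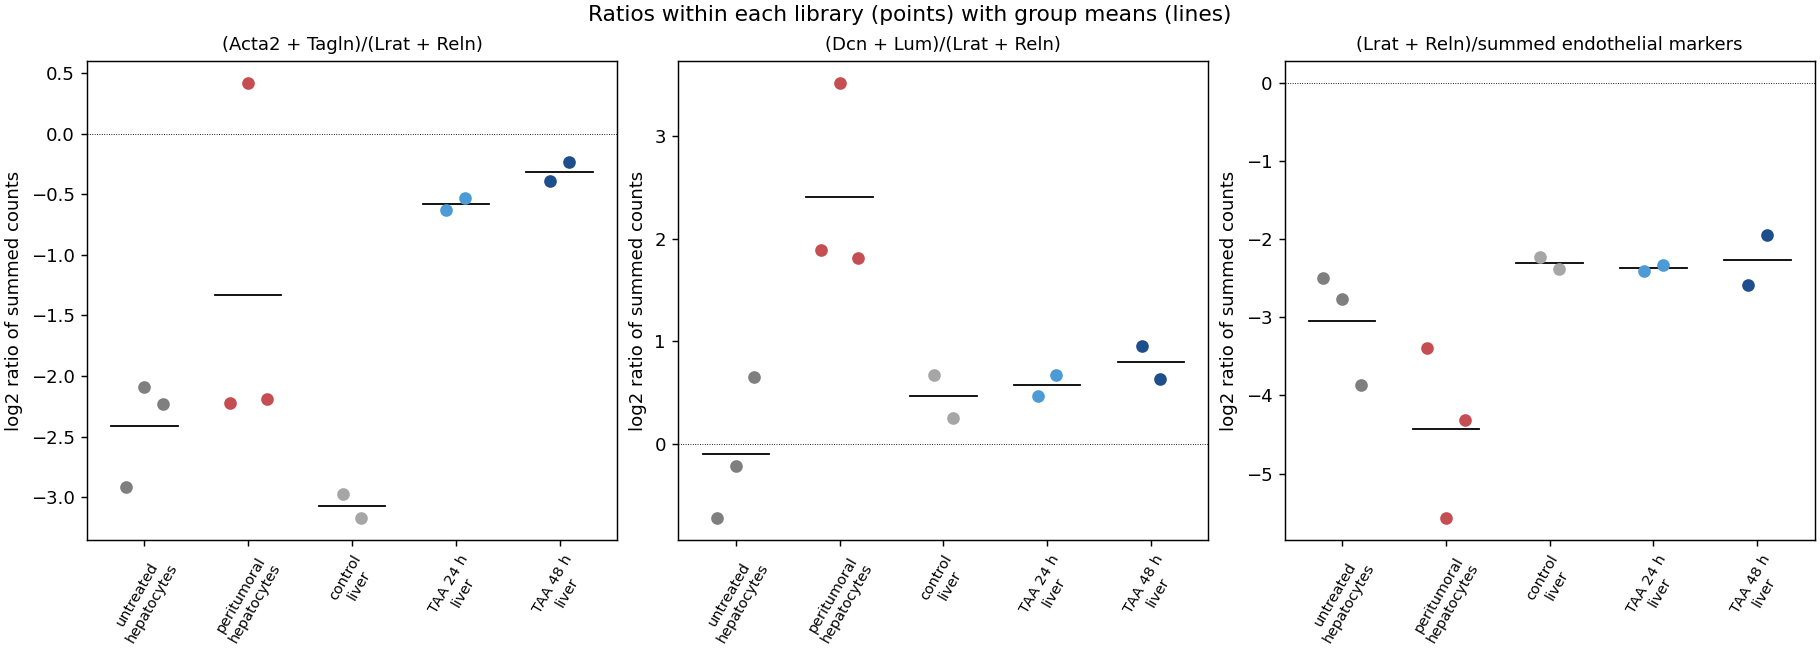
Log2 ratio of summed counts in each library for 3 ratios of the genes named, by group. The ratio of Acta2 plus Tagln to Lrat plus Reln climbs in TAA livers, from -2.97 and -3.17 in controls to -0.39 and -0.23 at 48 h, and that of Dcn plus Lum to Lrat plus Reln in peritumoral hepatocytes, to between 1.82 and 3.52.

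Endothelial cells, which share the sinusoid with stellate cells, gave another ratio. Lrat plus Reln over 12 endothelial markers was -2.22 and -2.38 in control livers, -2.40 and -2.33 at 24 h and -2.59 and -1.95 at 48 h, with differences of -0.06 and 0.04 from the controls. In hepatocytes it was -2.50, -2.77 and -3.86 in untreated and -3.39, -5.57 and -4.32 in peritumoral libraries (difference -1.38, exact permutation p = 0.2). That difference was -0.81 without peritumoral replicate 2 and -1.79 without untreated replicate 3. All these groups overlapped with their controls.

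Markers of several other cell types rose as well, but no hepatocyte marker did. Over all genes 19.0% rose next to tumours, 21.3% rose and 20.5% fell at 24 h, and 25.0% rose and 23.9% fell at 48 h. Endothelial markers rose in 12 of 12 next to tumours, 8 of 12 at 24 h and 10 of 12 at 48 h, and their sum ran from 231 to 331 CPM in untreated hepatocytes, 942 to 1794 in peritumoral hepatocytes, 204 to 248 in control livers, 410 to 532 at 24 h and 459 to 561 at 48 h. Macrophage markers rose in 8, 4 and 9 of 9, with sums of 265 to 399, 1450 to 4229, 79.9 to 183, 386 to 507 and 796 to 1232 CPM in the same order of groups. Markers of vascular mural cells, the pericytes and smooth muscle cells that also make Acta2, Tagln, Des and Pdgfrb, rose in 6 of 6, 5 of 5 and 5 of 5, with sums of 20.3 to 31.3, 188 to 253, 39.2 to 73.3, 129 to 148 and 164 to 184 CPM. Of these 7 markers only Myocd was at 0 throughout untreated hepatocytes and control livers. Cholangiocyte markers rose in 5 of 7 next to tumours, in 4 of 6 at 24 h and in 2 of 6 at 48 h, where 1 fell, with sums of 50.4 to 85.1, 780 to 7324, 78.4 to 85.2, 146 to 167 and 175 to 270 CPM. Hepatocyte markers fell in 3 of 10 at 24 h and 4 of 10 at 48 h, and none of the 10 passed next to tumours. Of 6 lymphocyte markers, 0 were tested next to tumours and 1 after TAA, which rose at 24 h and did not pass at 48 h. The part of these cells in the changes of the stellate genes was not tested.

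Further stellate cell genes, mostly of the quiescent cell, and genes of the fibroblasts of the portal tract were set beside the 10, with the same shares of all genes as background. Next to tumours, 13 of 17 of the former rose and none fell, with Cygb, the globin that marks stellate cells, up by 2.40 ± 0.21 and Adamtsl2, a secreted microfibril-associated glycoprotein, by 3.94 ± 0.39. At 24 h 5 of 17 rose and 1 fell, and at 48 h 11 rose and 1 fell, with Nes (nestin, an intermediate filament known to be induced on activation rather than in the quiescent cell) up by 3.86 and 3.97 and Hgf (hepatocyte growth factor) by 1.72 and 2.64. Portal fibroblast and mesothelial genes rose in 10 of 11 next to tumours, 4 of 11 at 24 h and 7 of 11 at 48 h; their sums ran from 6.38 to 8.12 CPM in untreated hepatocytes, 68.8 to 289 in peritumoral hepatocytes, 9.37 to 16.4 in control livers, 25.1 to 31.1 at 24 h and 43.4 to 61.9 at 48 h. Eln (elastin) rose next to tumours by 6.54 ± 0.61 and Cd34, a surface sialomucin of fibroblasts and endothelium, by 3.94 ± 0.31. Fbln2 (fibulin-2) rose by 1.29 at 24 h and 2.86 at 48 h, and Cd34 by 2.12 at 48 h. Mfap5 and Upk1b, which mark such fibroblasts and mesothelium, were at 0 in untreated hepatocytes, and Upk1b reached 5.86, 23.6 and 2.03 CPM in peritumoral hepatocytes. After TAA Upk1b rose by 4.10 at 24 h, from 0.104 and 0 CPM in control livers to 1.27 and 0.970 CPM. At 48 h it stood at 0.958 and 1.05 CPM. Dcn, Lum and Pdgfra are expressed by portal fibroblasts as well, and the part of those cells in their changes was not tested.

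Matrix genes of the myofibroblast rose in 15 of 17 next to tumours, 13 of 16 at 24 h and 15 of 16 at 48 h. The shares of all genes that rose were 19.0%, 21.3% and 25.0%. Col3a1, a chain of fibrillar collagen, rose next to tumours by 5.47 ± 0.50 and Sparc, a collagen-binding matricellular protein, by 3.69 ± 0.34. Vim (vimentin) rose by 3.96 at 24 h and 5.44 at 48 h. Timp1, the inhibitor of matrix metalloproteinases, went from 0.104 and 0.0997 CPM in control livers to 12.2 and 8.44 CPM at 24 h and 13.1 and 16.9 CPM at 48 h. Contractile genes other than the members rose in 5 of 10 next to tumours, among them Myl9 (myosin light chain) by 2.31 ± 0.36 and Smtn (smoothelin) by 2.32 ± 0.41. After TAA they rose in 10 of 13 at 24 h and 11 of 13 at 48 h, with 1 lower each time, and Flna (filamin A) was up by 2.86 and 3.59, Tpm1 (tropomyosin 1) by 2.22 at 24 h and Smtn by 2.96 at 48 h. Between 24 h and 48 h 9 of 16 matrix genes and 3 of 13 contractile genes rose, against 4.96% of all genes. Col1a2 (a chain of collagen I) was up by 2.91, S100a6 (a calcium-binding protein) by 3.22, Smtn by 1.12 and Mylk (myosin light chain kinase) by 0.56.

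The difference of change was tested for the same lists, where over all genes 9.03% were larger and 12.1% smaller against 24 h, and 6.71% and 8.57% against 48 h. Against 24 h the peritumoral change was larger for 3 of 17 matrix genes, among them Col1a2 (4.04) and Col3a1 (2.58), and smaller for 2 of 13 contractile genes, Tpm1 (-3.27) and Vcl (vinculin, -1.55). Against 48 h it was smaller for 3 of 17 matrix genes, with Vim at -2.83 and Ctgf, a YAP target, at -1.997, and for 3 of 13 contractile genes, with Tpm1 at -3.19 and Vcl at -1.70. Among the further stellate cell genes it was larger for 6 of 17 against 24 h, with Adamtsl2 at 3.28 and the parathyroid hormone receptor Pth1r at 3.07, and smaller for 1; against 48 h 1 was smaller, Nes at -2.91. Portal fibroblast and mesothelial genes had a larger change for 6 of 13 against 24 h and 4 of 13 against 48 h, with Eln at 4.82 and 3.86 and Cd34 at 2.43 and 1.74.

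Ligands of the member receptors changed in both sets. Pdgfb, whose product binds both receptors, had a mean of 0.948 CPM in untreated and 7.06 CPM in peritumoral hepatocytes, a rise of 2.88 ± 0.51, and Pdgfd, whose product activates the beta receptor, rose there by 4.87 ± 0.59. The mean of Pdgfb in livers was 0.560 CPM in controls, 3.73 CPM at 24 h and 4.78 CPM at 48 h. Pdgfa, a ligand of the alpha receptor, went in livers from a mean of 2.95 CPM in controls to 16.4 CPM at 24 h and 7.77 CPM at 48 h; it rose by 2.36 at 24 h and fell by 1.04 from there to 48 h. The change of Pdgfd was larger next to tumours than at 24 h and 48 h, by 4.21 and 3.62, and that of Pdgfc was larger than at 24 h by 1.99. In the list the peritumoral change was larger for 2 and smaller for 3 of 11 genes against 24 h, and larger for 1 and smaller for 2 against 48 h. The shares of all genes were 9.03% larger and 12.1% smaller against 24 h, and 6.71% and 8.57% against 48 h. Lrp8, a receptor for reelin, was at 0 in both control livers and at 1.75 and 2.02 CPM at 24 h and 1.92 and 3.23 CPM at 48 h. Sort1 (sortilin, a partner of the Ngfr product) rose by 1.64 from 24 h to 48 h. In all, 5 of 10 genes of ligands and partners rose next to tumours, 4 rose and 1 fell at 24 h, and 6 rose at 48 h. Of all genes 19.0%, 21.3% and 25.0% rose in these comparisons, and 20.5% fell at 24 h.

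Other small leucine-rich proteoglycans, the family of Dcn and Lum, rose in 4 of 5 tested next to tumours and 2 of 4 at each time after TAA. Of all genes 19.0% rose next to tumours, 21.3% at 24 h and 25.0% at 48 h. Bgn (biglycan) rose by 3.66 ± 0.25 next to tumours, by 1.42 at 24 h and by 2.43 at 48 h, and by 1.01 from 24 h to 48 h. Ogn (osteoglycin) rose next to tumours by 5.12 ± 0.71, and Prelp after TAA by 0.68 and 1.28. The peritumoral change was larger than at 24 h for 3 of 6, with Bgn at 2.13 and Ogn at 4.83, against 9.03% of all genes. It was larger than at 48 h for 2 of 6, Ogn at 4.01 and Prelp at 1.99, against 6.71%.

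Genes of retinoid handling, the pathway of Lrat, did not move one way. Next to tumours 4 of 11 rose and 1 fell, and after TAA 2 rose and 5 fell at 24 h and 3 rose and 5 fell at 48 h. Of all genes tested, 19.0% rose next to tumours, where 1370 of 13442 fell. After TAA 21.3% rose and 20.5% fell at 24 h, and 25.0% rose and 23.9% fell at 48 h. Aldh1a2, which makes retinoic acid, rose next to tumours by 5.35 ± 0.66, and Aldh1a3, of the same function, was at 0.0565, 0 and 0 CPM in untreated and 1.52, 1.00 and 1.52 CPM in peritumoral hepatocytes. After TAA Lpl (lipoprotein lipase) rose by 2.55 at 24 h and 4.59 at 48 h, and Dhrs3, which reduces retinal to retinol, fell by 1.89 and 1.62. The peritumoral change of Lpl was smaller, by -2.87 and -4.88, and that of Cyp26a1, which degrades retinoic acid, larger, by 4.20 and 4.00. From 24 h to 48 h Lpl rose by 2.05 and Aldh1a1 by 1.26.

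The genes whose profiles over the 12 libraries were nearest to each member were found by the root-mean-square difference of log2(CPM + 0.5), each profile centred on its own mean, among 12038 genes. Dcn lay nearest to Tgfbi (0.206) and Scarf2 (0.264), and Lum to Lamb1 (0.208) and Bgn (0.280). Tagln lay nearest to Nes (0.293) and Ereg (0.300), Acta2 to Postn (0.393) and Robo2 (0.478), Des to Mest (0.373) and Cd248 (0.415), and Pdgfrb to Robo2 (0.365) and Tnfrsf11b (0.445). Pdgfra lay nearest to Olfml3 (0.346) and Glis2 (0.412), and Ngfr to Adamts14 (0.434) and Fam174b (0.453). Lrat (Pcdh18, 0.504, and Ccdc3, 0.506) and Reln (Hapln1, 0.522, and Etv5, 0.540) had the most distant neighbours. The median distance of all genes to a member ran from 0.940 to 1.73. Among the members, Lrat and Reln were each other's nearest (0.636), as were Des and Pdgfrb (0.376) and Dcn and Lum (0.466); Acta2 lay nearest to Pdgfrb (0.502), Tagln to Des (0.502), Pdgfra to Lum (0.560) and Ngfr to Lum (0.660).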

How the data were processed

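The authors deposited raw counts per gene for 41128 genes, the input of every test, and a table of RPM values for 17311 genes, which are the same counts divided by library totals (100% gave whole counts within 0.001). STAR and DESeq2 were used with mm10 and GRCm38, per the submitters' processing notes; no source used here gives the strand setting or annotation. Positions came from GENCODE M21 (40254 IDs matched). The test was the two-sided quasi-likelihood F test of edgeR 4.0.16 in R 4.3.3, with TMM factors and a prior count of 0.125, checked on simulated data. Genes were kept by filterByExpr (at least 10 counts, 15 in total), and p was adjusted by Benjamini-Hochberg (threshold 0.05). The 6 hepatocyte libraries (13442 genes) and the 6 liver libraries (13497 genes) were fitted apart; all 12 (14615 genes) served for differences of change. Ratios had 0.5 counts added to each sum. DESeq2 1.42.0 and limma 3.58.1 on log2 RPM with a pseudocount of 0.5 or 0.1 were alternatives, and the legacy dispersion of edgeR was one added after seeing the data. The 10 genes, 7 companion lists (99 genes) and 6 marker lists were chosen with earlier results of these data known. Named companions are the 2 tested genes of each list with the smallest p in a comparison. Upk1b in peritumoral hepatocytes and at 48 h, Pdgfb in livers, Mfap5 and Gfap were added after their values were seen. Companion lists were tested at these settings only, and 1 companion gene that the rule names is not reported here. Replicates of a group differed by more than sampling noise, so none was counted as a duplicate. Replicate numbers were not used to pair the libraries in the main fits.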

Additional observations from a re-analysis of the deposited data

Results flagged for a closer look

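The changes of 5 genes differed between the settings in a test of the difference itself (edgeR, all 12 libraries, peritumoral log2 fold change minus that after TAA). Against 24 h, the difference was 2.91 for Pdgfra, 2.26 for Dcn, 1.98 for Lum and -2.47 for Tagln. Against 48 h, it was 1.95 for Dcn, -2.48 for Tagln and -1.74 for Acta2. The sets differ in mouse stock, agent and duration, and may differ in preparation, and these cannot be told apart. Within the hepatocyte set, injection, tumour growth and any difference in age at collection cannot be told apart either.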

How the results depend on the processing

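In the 3 comparisons with an untreated group the 10 changes were positive under every setting run. Members called ranged over 7 to 8 (peritumoral), 6 to 10 (24 h) and 8 to 10 (48 h) under other settings, and over 6 to 8, 6 to 9 and 9 to 10 with 1 library left out. From 24 h to 48 h, 4 members passed in place of 2 with no factors, DESeq2, both limma fits at a pseudocount of 0.5 or only the 2 groups fitted, 1 with no count filter or with the replicate block, and 0 in edgeR with all 12 libraries (2 at an unadjusted p under 0.05). In that comparison Reln and Ngfr changed sign at values near 0: -0.0025 and -0.0061 with no count filter, -0.032 and -0.037 with all 12 libraries, and -0.012 and -0.0087 with only the 2 groups. With 1 library left out the members called ranged from 0 to 4 from 24 h to 48 h, from 0 to 4 for the difference from 24 h and from 0 to 3 for that from 48 h; where edgeR called 0, 3 to 5 members had an unadjusted p under 0.05. Signs then also changed from 24 h to 48 h for Des (-0.12 to 0.57), Tagln (-0.30 to 0.32), Reln (-0.20 to 0.19) and Ngfr (-0.73 to 1.52), against 24 h for Pdgfrb (-0.84 to 0.018), Reln (-0.57 to 0.19) and Ngfr (-0.039 to 2.24), and against 48 h for Reln (-0.53 to 0.22). The ratio of Dcn plus Lum to Lrat plus Reln at 24 h ran from -0.11 to 0.32, and Lrat plus Reln over endothelial markers from -0.14 to 0.014 at 24 h, -0.28 to 0.36 at 48 h and -0.22 to 0.42 between them. With the replicate block 8, 8, 9, 1, 4 and 4 members passed in the 6 comparisons. Tagln was gained next to tumours (1.498) and Pdgfra against 48 h (1.75). Same-numbered hepatocyte libraries had deviations correlated by -0.22 to 0.17, and not every one correlated best with its own number. In livers these correlations were 0.023 to 0.027. There the 2 deviations of a group mirror each other, so pairing could not be settled. Genes called moved most from 3930 next to tumours to 2256 (limma, mean RPM of at least 1), 2558 (limma, pseudocount 0.5), 2594 (count filter of 50) and 5941 (all 12 libraries), with 1359 to 3827 over single libraries left out; from 5644 at 24 h to 3255 (all 12) and 2821 to 4842; and from 989 between the times to 131 (all 12), 654 (no filter), 1519 (DESeq2), 1607 and 1743 (limma) and 0 to 1344. Over single libraries left out they ran from 4551 to 6174 at 48 h, 551 to 4227 against 24 h and 293 to 3620 against 48 h. With no factors the splits of higher and lower genes were 1281 and 181 between the times, 908 and 1578 against 24 h and 541 and 1919 against 48 h. The cause of these shifts was not tested. Depth limits the lowest genes, such as Des, Ngfr and Pdgfra in control groups. Pdgfra had 7 counts in untreated replicate 3.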
